A study of Drosophila melanogaster with 40 samples.

Results

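The 8 genes described here encode the energy-sensing machinery of the fly and were chosen by name from a table of 23932 features measured in 40 libraries. They are AMPKalpha, alc and SNF4Agamma (the 3 subunits of the AMP-activated protein kinase, AMPK), Lkb1, Sesn, Sirt1, srl and ERR. All 8 passed the filter on low counts that left 12939 features for testing. The RNA came from legs of male Drosophila melanogaster, with 4 pools of 15 flies in each of 10 groups. One strain, called Hsp70- here, carries the deletions Df(3R)Hsp70A and Df(3R)Hsp70B in a w1118 background, and the other is w1118. Both strains were sampled after a bout of exercise lasting 2 h at day 7, with legs taken directly afterwards, and at rest on that day. They were also sampled at day 23 after 19 days of training and without it, and at day 47 with no treatment. Training ran over days 4 to 22 in sessions of 30, 60 and then 90 min on a device rotating every 15 s, and the legs were taken 24 h after the last session. Each strain is a single stock, and the 2 came from different stock centres, so the deletions cannot be told apart from other differences between the stocks.

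AMPK is a kinase of 3 subunits that is switched on when cellular AMP rises relative to ATP; it then favours pathways that make ATP and restrains those that consume it. Sestrins are stress-induced proteins that promote AMPK activity and hold back the growth kinase TOR, and the PGC-1 coactivators with their nuclear receptor partners drive mitochondrial gene expression. In flies, loss of Sesn is known to blunt the gain from endurance training, and raised srl is known to improve endurance.

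Libraries of day 7 held 21955858 to 29215993 counts, those of day 23 held 22329878 to 30076080, and those of day 47 held 35144736 to 39313671. Of the 6 Hsp70 genes listed as knocked out, 5 summed to 11 counts in the 20 Hsp70- libraries, against 1748 in the 20 w1118 libraries, while the other one, Hsp70Bb, had 1283 counts in Hsp70- and 1149 in w1118 and so went against its label. All 14 muscle markers had a median of at least 1 CPM. For their summed level, the Hsp70- libraries had 21402 to 26311 CPM in old flies (day 47) and 23432 to 31075 CPM in young flies (day 7), and the w1118 libraries had 15213 to 16483 CPM in old and 24980 to 33488 CPM in young flies. Testis markers (20 genes, of which 6 had a median of 0) were over 10 times the median in 3 libraries, namely Hsp70- day 7 replicate 2, w1118 exercised replicate 1 and w1118 trained replicate 1. In bulk legs, fewer cells of a type and less RNA per cell cannot be told apart, and p-values measure the spread between pools, which may be technical in part.

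The genes lie on 5 chromosome arms (Ensembl BDGP6.54, matched by FlyBase identifier). AMPKalpha (FBgn0023169), the catalytic subunit, is at chrX:1375536-1378896. SNF4Agamma (FBgn0264357), the subunit that binds adenine nucleotides, is at chr3R:21140739-21214269 and has 16 annotated transcripts. The scaffold subunit alc (alicorn, FBgn0260972) is at chr2R:9135375-9137933. Lkb1 (FBgn0038167), the kinase that phosphorylates AMPKalpha, is at chr3R:13676549-13679430. Sesn (FBgn0034897), the fly Sestrin, is at chr2R:23713900-23734846. Sirt1 (FBgn0024291), an NAD-dependent deacetylase, is at chr2L:13165564-13169551. The PGC-1 homolog srl (spargel, FBgn0037248) is at chr3R:4422483-4429335, and the nuclear receptor ERR (FBgn0035849), which in flies switches on glycolytic genes, is at chr3L:8183361-8186671.

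Some of these loci overlap others. CG46429 shares 3097 exonic bases with Sesn on the same strand, and its counts were 99.67% to 99.96% of those of Sesn in each library. Every value given for Sesn is therefore a value of the joint reads of Sesn and CG46429, which cannot be told apart. On the opposite strand, Sirt1 shares 509 exonic bases with DnaJ-H, Lkb1 133 with CG9588, alc 79 with Hydr1 and AMPKalpha 12 with CG3719. ERR shares 416 with asRNA:CR45869, 735 with asRNA:CR45870 and 9 with Uxs. Over the 40 libraries these partners had unlike counts. As a share of the member's counts, DnaJ-H had 99.2%, CG9588 89.4%, Hydr1 106% and CG3719 52.2%. For ERR, Uxs had 81.1%, asRNA:CR45869 0.242% and asRNA:CR45870 0.737%. The library kit marks strand, but whether the counting used it is not given in the sources used here, so these genes are uncertain to that extent.

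Levels are given as CPM, that is counts scaled to a common library size. Per kilobase of exon, alc was the most abundant of the 8, with a median of 80.7 CPM per kb over the 40 libraries. AMPKalpha followed at 58.6, Sesn at 43.3 and SNF4Agamma at 28.1 CPM per kb. Sirt1 (22.5), ERR (14.6) and Lkb1 (9.65 CPM per kb) were lower, and srl had 3.04 CPM per kb. The length used was that of all annotated exons of a gene merged, 1.544 kb for alc and 11.99 kb for SNF4Agamma. The order depends on that choice. By CPM alone SNF4Agamma was the highest of the 8 (median 337 CPM), against 206 for Sesn, 167 for AMPKalpha and 125 for alc. The range over all libraries was narrow for most genes. The highest library was 1.33 times the lowest for Sirt1, 1.42 times for AMPKalpha, 1.48 times for SNF4Agamma, 2.36 times for Sesn and 4.19 times for srl. The low count of srl, at 177 to 1503 reads per library, went with the largest standard errors of the 8 (0.21 on the log2 scale, against 0.05 for AMPKalpha).

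**Figure D1:**
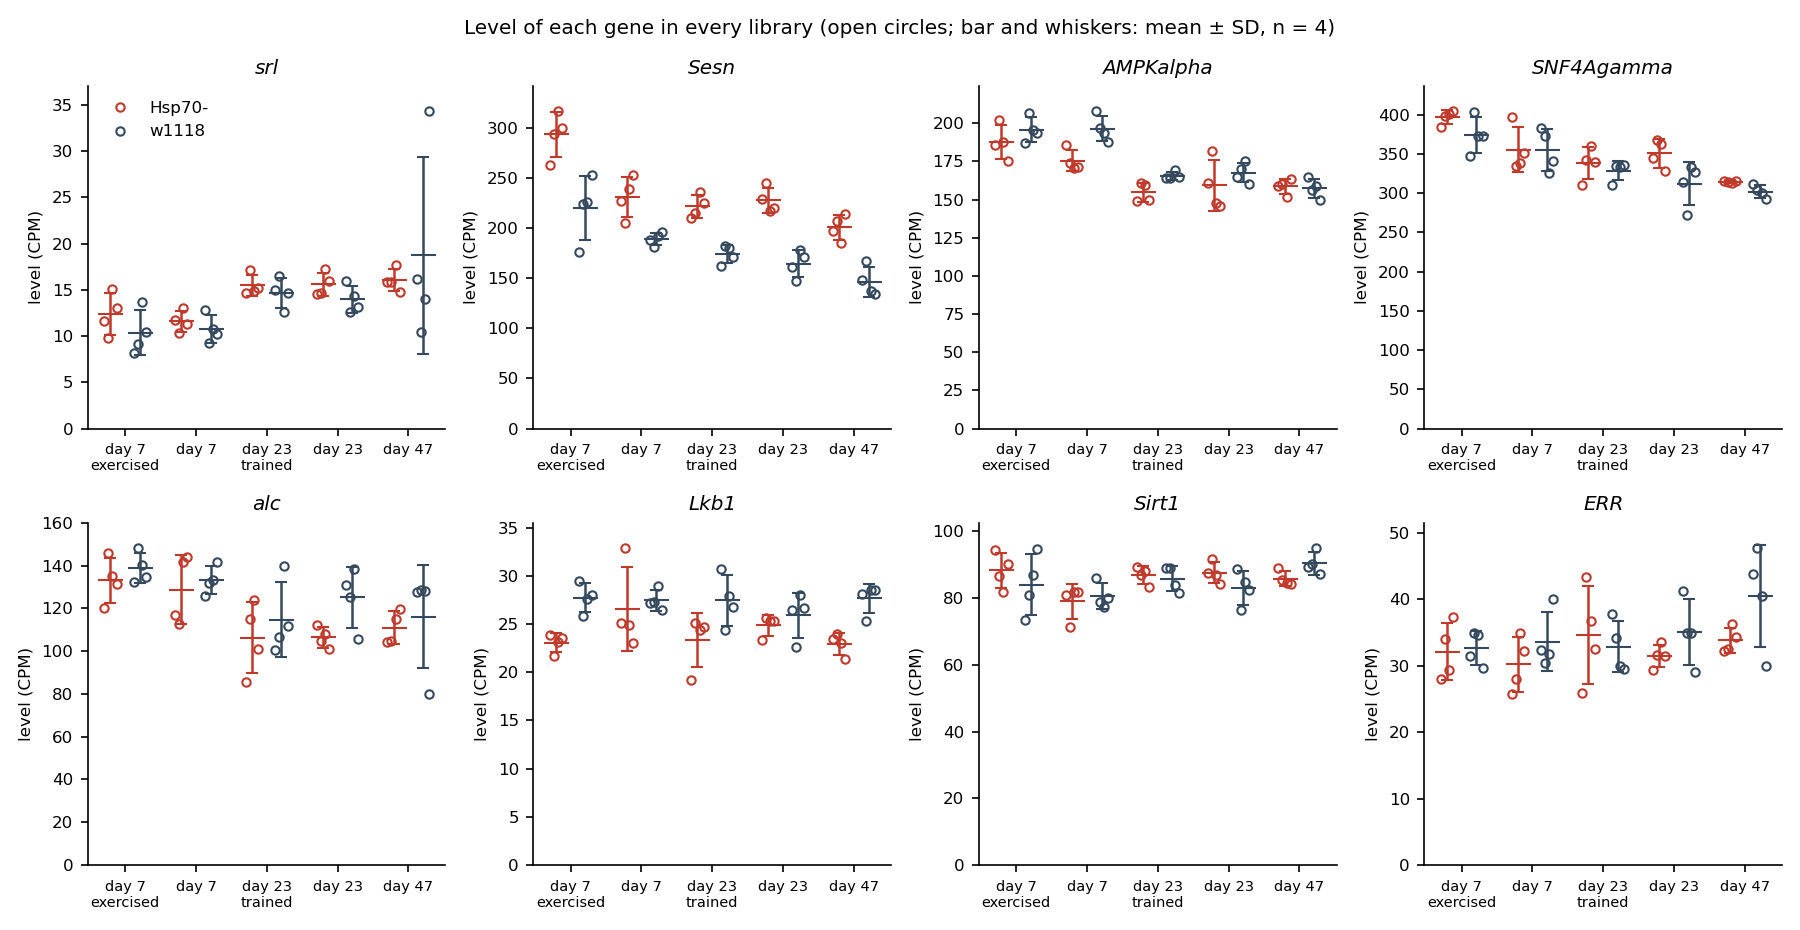
Level (CPM, y axes from 0) of the 8 genes in each of the 40 libraries, by condition (x axes), with Hsp70- in red and w1118 in blue; bars and whiskers are the mean and SD of 4 pools. Sesn lies higher in Hsp70- in every condition, and w1118 day 47 replicate 4 stands out for srl (34.3 CPM) and alc (79.9 CPM).

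The strains were compared in 5 matched conditions, which asks how leg gene expression differs between the stocks. Sesn was higher in Hsp70- in all 5, by 0.29 to 0.47 on the log2 scale. AMPKalpha was lower in Hsp70- at day 7, and Lkb1 was lower at day 47 and after exercise. The other 5 genes (SNF4Agamma, alc, Sirt1, srl and ERR) were not called in any condition. Of 40 tests, 8 were called at an adjusted p under 0.05.

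Sesn at day 7 was at 227, 205, 239 and 253 CPM in the Hsp70- pools and 188, 181, 192 and 196 CPM in the w1118 pools. Every Hsp70- pool was above every w1118 pool (log2 fold change 0.29 with SE 0.08, adjusted p = 0.0126 by edgeR). At day 23 Sesn was at 229, 245, 218 and 220.4 CPM in Hsp70- and 161, 148, 178 and 171 CPM in w1118. This was the largest of the 5 differences (log2 fold change 0.47 with SE 0.08, adjusted p = 8.09e-05 by edgeR), and again the pools did not overlap. At day 47 the levels were 197, 207, 186 and 214 CPM in Hsp70- and 148, 167, 137 and 134 CPM in w1118, with the lowest Hsp70- pool above the highest w1118 pool (log2 fold change 0.45 with SE 0.08, adjusted p = 0.000126 by edgeR).

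The gap was present in the active groups as well. After exercise Sesn was at 264, 294, 317 and 300.0 CPM in Hsp70- and 176, 224, 226 and 253 CPM in w1118 (log2 fold change 0.42 with SE 0.08, adjusted p = 0.000406 by edgeR). The highest w1118 pool did not reach the lowest Hsp70- pool. In trained flies it was at 210.4, 215, 237 and 225 CPM in Hsp70- and 162, 182, 181 and 172 CPM in w1118 (log2 fold change 0.35 with SE 0.08, adjusted p = 0.0032 by edgeR), also with no overlap. All 5 calls were kept when each library was left out in turn. The day 7 call was lost (log2 fold change 0.34, edgeR adjusted p = 0.0902) without the 11 libraries in which testis, accessory gland or eye markers were over 10 times their median, which leaves 1 Hsp70- pool at day 7.

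The group means of Sesn fell into an order. Exercised Hsp70- was highest (294 ± 22.2 CPM, SD, n = 4), followed by Hsp70- at day 7 (231 ± 20.2), day 23 (228 ± 12.4) and day 23 trained (222 ± 11.6 CPM). Exercised w1118 (219.9 ± 32.1) and Hsp70- at day 47 (201 ± 12.4 CPM) came next. The other w1118 groups were lowest, at 189 ± 6.47 (day 7), 174 ± 9.23 (trained), 165 ± 13.3 (day 23) and 147 ± 15 CPM (day 47). Adjacent means differed by more than both their SDs at 3 steps, namely below exercised Hsp70-, between w1118 at day 7 and trained w1118, and between w1118 at days 23 and 47; the other neighbours did not differ beyond the larger SD.

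Of the AMPK subunits, AMPKalpha at day 7 was at 186, 174, 171 and 171 CPM in Hsp70- and 208, 197, 194 and 188 CPM in w1118. The 4 Hsp70- pools were all below the 4 w1118 pools (log2 fold change -0.16 with SE 0.05, adjusted p = 0.026 by edgeR). This call was lost without w1118 day 7 replicate 1 or 2 or without Hsp70- day 7 replicate 2 (edgeR adjusted p = 0.0529 to 0.0887) and in 5 of 10 other settings. In the other 4 conditions the log2 fold change of AMPKalpha was -0.10 to 0.01, with no call, although the trained pools of the strains did not overlap either. Without Hsp70- day 23 replicate 2 it was called at day 23 (edgeR adjusted p = 0.046). SNF4Agamma at day 23 was at 344, 368, 362 and 328 CPM in Hsp70- and 315, 272, 333 and 327 CPM in w1118, and 3 of the 4 Hsp70- pools were above all w1118 pools. It missed the threshold (log2 fold change 0.17 with SE 0.06, adjusted p = 0.0508 by edgeR). It was called without w1118 day 23 replicate 3 or 4 or Hsp70- day 23 replicate 4 (edgeR adjusted p = 0.0355, 0.0445 and 0.0373) and in 5 other settings. At day 47 the strains did not overlap for SNF4Agamma, but it was not called (log2 fold change 0.06 with SE 0.06, adjusted p = 0.598 by edgeR). The third subunit, alc, had log2 fold changes of -0.23 to -0.05 over the 5 conditions with no call.

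Lkb1 was at 23.4, 23.9, 23 and 21.4 CPM in Hsp70- and 28.1, 25.4, 28.6 and 28.6 CPM in w1118 at day 47. The strains did not overlap (log2 fold change -0.27 with SE 0.09, adjusted p = 0.0253 by edgeR). After exercise it was at 23.9, 21.7, 23.2 and 23.6 CPM in Hsp70- and 29.5, 25.9, 27.6 and 28 CPM in w1118, again without overlap (log2 fold change -0.27 with SE 0.09, adjusted p = 0.0302 by edgeR). In trained flies the difference was of like size but not called (log2 fold change -0.23 with SE 0.09, adjusted p = 0.0652 by edgeR), except without w1118 trained replicate 2 (edgeR adjusted p = 0.035). At days 7 and 23 the log2 fold changes of Lkb1 were -0.05 and -0.06, not called. The day 7 value was -0.17 (edgeR adjusted p = 0.177) without Hsp70- day 7 replicate 2 and 0.01 (edgeR adjusted p = 0.966) without Hsp70- day 7 replicate 4. Lkb1 was the highest of its group in all 3 libraries with testis markers, at 32.9 CPM in Hsp70- day 7 replicate 2, 29.5 CPM in w1118 exercised replicate 1 and 30.8 CPM in w1118 trained replicate 1. The day 47 call was lost without w1118 replicate 1, 3 or 4 or Hsp70- replicate 4 of day 47 (edgeR adjusted p = 0.0596 to 0.0894). The exercised call was lost without w1118 replicate 1 or 4 or Hsp70- replicate 2, 3 or 4 of that condition (edgeR adjusted p = 0.0519 to 0.0985) and without the 11 marker-rich libraries (0.0658).

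The remaining members were not called between the strains. Sirt1 had log2 fold changes of -0.07 to 0.08 over the 5 conditions, with SEs of 0.06 at most. ERR ranged from -0.26 at day 47 to 0.07 in trained flies. At day 47 ERR was at 32.2, 32.5, 36.3 and 34.3 CPM in Hsp70- and 43.8, 47.8, 40.6 and 29.9 CPM in w1118. Without w1118 replicate 4, the lowest pool, that difference was called (log2 fold change -0.38, edgeR adjusted p = 0.0476). For srl the log2 fold changes were -0.22 to 0.26, with SEs of 0.21.

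These counts of calls were read against all features, whereas pools without overlap were not counted over all features. The comparison at day 7 called 25.8% of the tested features, with 15.8% above and 9.99% below w1118, beside 1 of the 8 genes higher and 1 lower. At day 23 the share was 17.8% (8.78% higher, 9% lower), beside 1 higher. At day 47 it was 19.4% (9.93% higher, 9.49% lower), beside 1 higher and 1 lower. After exercise it was 20.2% (8.95% higher, 11.2% lower), also beside 1 higher and 1 lower. In trained flies it was 15.6% (8.41% higher, 7.17% lower), beside 1 higher. The number of members called in any 1 condition was thus near the background.

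**Figure D2:**
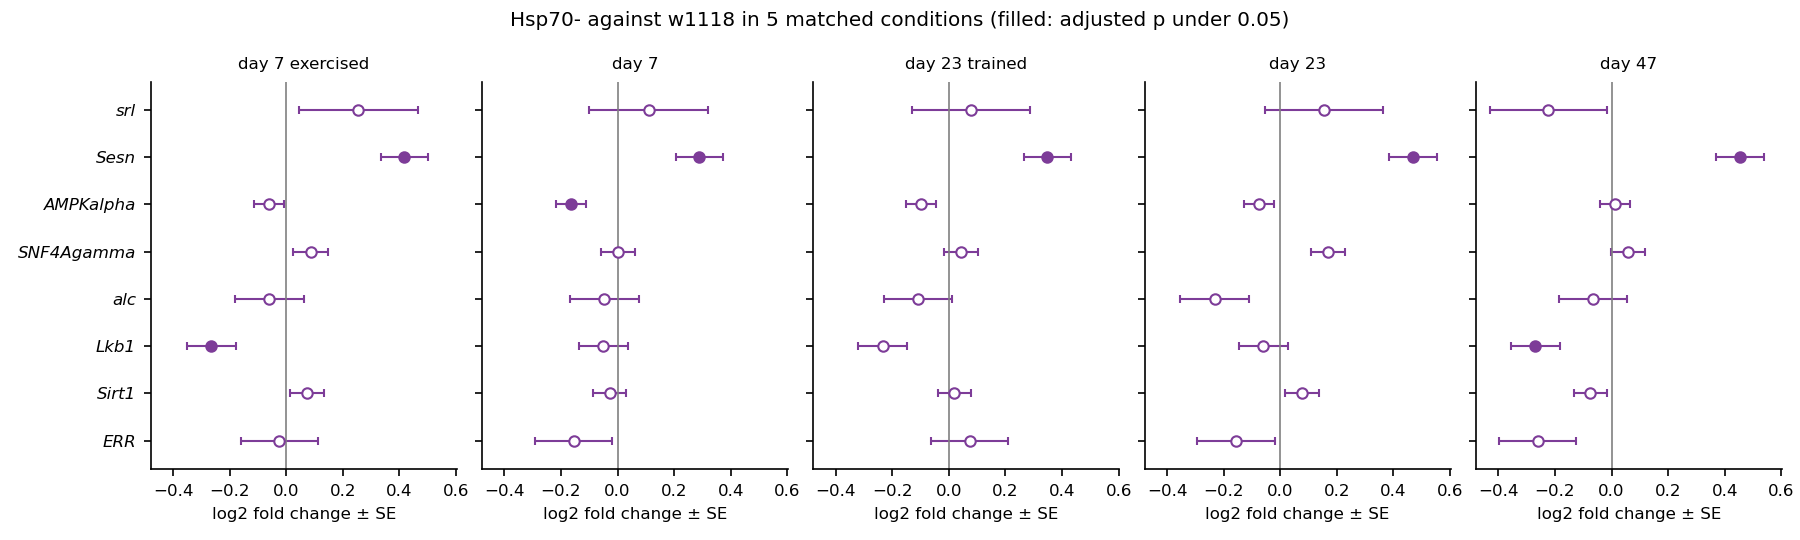
Log2 fold change of Hsp70- against w1118 with its SE (x axes) for the 8 genes in 5 conditions; filled points have an edgeR adjusted p under 0.05. Sesn is filled in every panel (0.29 to 0.47), AMPKalpha at day 7 only, and Lkb1 at day 47 and after exercise.

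Genes around the members were followed in 7 lists with 81 tested genes. Their counts stand beside 15.6% (trained) to 25.8% (day 7) of all features called in either direction. Among 11 AMPK targets, Atg1, the kinase that starts autophagy, was higher in Hsp70- in all 5 conditions. It averaged 68.1 ± 8.31 CPM in Hsp70- and 52.3 ± 3.73 CPM in w1118 at day 7 (± SD over 4 pools per strain; log2 fold change 0.38 with SE 0.08, adjusted p = 0.00107 by edgeR), and its log2 fold changes ranged up to 0.66 after exercise. ACC, the acetyl-CoA carboxylase of fatty acid synthesis, was lower at day 7 (log2 fold change -0.74 with SE 0.18, adjusted p = 0.00296 by edgeR) and at day 47 (log2 fold change -0.58 with SE 0.18, adjusted p = 0.0184 by edgeR). In the list, 1 gene was higher and 6 lower at day 7, with a median of -0.30 against 0.01 for all features. At day 47, 1 was higher and 4 lower, with a median of -0.23 against -0.02. The remaining conditions did not show this skew in calls. At day 23, 1 was higher and 1 lower (median -0.04, against -0.01 for all features). After exercise 2 were higher and 1 lower (median -0.08), and in trained flies 1 was higher and 1 lower (median -0.17).

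The TOR branch holds the GATOR and TORC genes through which Sestrin acts. Of its 21 genes, 0 to 3 were higher and 0 to 3 lower in each condition, and 2 to 4 in either direction, near or below the share of all features. Iml1, a subunit of the GATOR1 complex that inhibits TORC1, was higher in Hsp70- in 4 of 5 conditions. It averaged 106 ± 9.31 CPM in Hsp70- and 65.7 ± 3.9 CPM in w1118 at day 47 (± SD over 4 pools per strain; log2 fold change 0.69 with SE 0.10, adjusted p = 2.18e-06 by edgeR). REPTOR, a transcription factor that acts when TORC1 is low, was higher in 3 of 5 (log2 fold changes 0.33 to 0.44, not called in the rest). Wdr24, of the GATOR2 complex that opposes GATOR1, was lower in 3 of 5 (-0.28 to -0.24). In the PGC-1 branch (14 genes), Drp1, the mitochondrial fission dynamin, was lower in Hsp70- in all 5 conditions (-0.33 to -0.15, highest edgeR adjusted p = 0.015). Other called genes of this list went both ways. With Drp1 counted, 1 was higher and 2 lower at day 7, and 0 higher and 1 lower at day 23. At day 47, 4 were higher and 1 lower. After exercise 2 were higher and 1 lower, and in trained flies 0 were higher and 3 lower.

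Among 12 ERR targets, Zw and Pgd, the dehydrogenases of the pentose phosphate pathway, were lower in Hsp70- in all 5 conditions. Zw averaged 61.1 ± 4.95 CPM in Hsp70- and 115.2 ± 5.21 CPM in w1118 at day 7 (± SD over 4 pools per strain; log2 fold change -0.92 with SE 0.12, adjusted p = 5.87e-07 by edgeR). Pgd averaged 124 ± 11.2 CPM in Hsp70- and 237 ± 13.7 CPM in w1118 (log2 fold change -0.94 with SE 0.15, adjusted p = 1.32e-05 by edgeR). Between 3 and 6 genes of this list were lower in each condition, and 1 (Eno, enolase, at day 47) was higher. Of 7 Sestrin regulators, 0 were called in 4 conditions, and cnc and Xbp1, stress-response transcription factors, were lower in Hsp70- at day 47 (-0.26 and -0.25 on the log2 scale, edgeR adjusted p = 0.00516 and 0.0334). Of the 9 sirtuin and NAD genes, Naprt was lower in 3 conditions (-0.34 to -0.27). Of the 7 AMPK upstream genes, Tak1 was lower at day 7 (-0.19, edgeR adjusted p = 0.0208).

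Age was compared within each strain at days 7, 23 and 47. By day 47, AMPKalpha and SNF4Agamma had fallen relative to day 7 in both strains. In w1118 Sesn had fallen as well, and srl and Sirt1 had risen. The changes were small, from -0.37 to 0.17 on the log2 scale among called genes other than srl. In all, 9 of 48 tests were called, and alc, Lkb1 and ERR were called in none.

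AMPKalpha in Hsp70- was at 186, 174, 171 and 171 CPM at day 7, 161, 182, 148 and 146 CPM at day 23 and 159, 160.2, 151 and 163 CPM at day 47. All 4 pools of day 47 were below those of day 7 (log2 fold change -0.15 with SE 0.05, adjusted p = 0.0384 by edgeR). In w1118 it was at 208, 197, 194 and 188 CPM at day 7, 165, 170.3, 175 and 160.4 CPM at day 23 and 164, 156, 159 and 149.7 CPM at day 47. Day 23 already lay below day 7 with no overlap (log2 fold change -0.23 with SE 0.05, adjusted p = 0.00368 by edgeR), and so did day 47 (log2 fold change -0.32 with SE 0.05, adjusted p = 1.59e-05 by edgeR). Both w1118 calls were kept with each library left out, and the day 23 call was lost only without the 11 marker-rich libraries (edgeR adjusted p = 0.0554). The Hsp70- call at day 47 was lost without Hsp70- day 7 replicate 1 or 2 or any 1 pool of day 47 (edgeR adjusted p = 0.051 to 0.127) and in 3 of 10 other settings. The Hsp70- change at day 23 was not called (log2 fold change -0.14 with SE 0.05, adjusted p = 0.0613 by edgeR), and was called without Hsp70- day 23 replicate 2 (edgeR adjusted p = 0.00827) and in 4 other settings. The difference between the strains in the change to day 47 was not called either (log2 fold change 0.17 with SE 0.08, adjusted p = 0.185 by edgeR).

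SNF4Agamma in Hsp70- was at 397, 335, 339 and 352 CPM at day 7, 344, 368, 362 and 328 CPM at day 23 and 315, 314, 313 and 315 CPM at day 47. The pools of day 47 lay within 3 CPM of each other and below both earlier ages (47 against 7: log2 fold change -0.18 with SE 0.06, adjusted p = 0.0294 by edgeR). In w1118 the levels were 383, 373, 325 and 340.5 CPM at day 7, 315, 272, 333 and 327 CPM at day 23 and 312, 304, 300.4 and 292 CPM at day 47. Day 47 lay below day 7 without overlap (log2 fold change -0.23 with SE 0.06, adjusted p = 0.00275 by edgeR). That call was lost only with no filter (log2 fold change -0.11, edgeR adjusted p = 0.181). In that setting the median log2 fold change of all features was 0.19, against 0.07 with the filter. Day 23 overlapped day 7 and was called narrowly (log2 fold change -0.19 with SE 0.06, adjusted p = 0.0409 by edgeR). It was lost without w1118 day 7 replicate 1 or 2 or day 23 replicate 1 or 2 (edgeR adjusted p = 0.0768 to 0.204) and in 3 of 10 other settings. The Hsp70- call was lost without Hsp70- day 7 replicate 1 or any 1 pool of day 47 (edgeR adjusted p = 0.058 to 0.144) and in 2 of 10 other settings.

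The scaffold subunit alc was at 128, 129, 128 and 79.9 CPM in w1118 at day 47 and 126, 132, 133 and 142 CPM at day 7, with replicate 4 of day 47 far below the others. In Hsp70- all 4 pools of day 23 were below those of day 7, but alc was not called (log2 fold change -0.27 with SE 0.12, adjusted p = 0.104 by edgeR). Its age changes to day 47 were -0.22 in Hsp70- and -0.20 in w1118 on the log2 scale (SE 0.12 each), not called. Without w1118 day 47 replicate 4 the w1118 value of alc was -0.05 (edgeR adjusted p = 0.736). Per kilobase, the gamma to alpha ratio of the subunit RNAs averaged 0.472 ± 0.0137 in Hsp70- and 0.457 ± 0.00799 in w1118 at day 47, and 0.482 ± 0.0217 in Hsp70- and 0.43 ± 0.0217 in w1118 at day 7 (± SD over 4 pools). Over the 40 libraries it ranged from 0.381 to 0.583, and the alc to AMPKalpha ratio from 0.986 to 1.55. Both ratios depend on the merged exon lengths (11.99 kb for SNF4Agamma, 2.853 kb for AMPKalpha and 1.544 kb for alc). By CPM alone the median of SNF4Agamma was above that of AMPKalpha (337 against 167 CPM).

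Sesn in w1118 had a mean of 189 ± 6.47 CPM at day 7, 165 ± 13.3 CPM at day 23 and 147 ± 15 CPM at day 47 (± SD over 4 pools). The pools of day 47 were all below those of day 7 (log2 fold change -0.37 with SE 0.08, adjusted p = 0.000824 by edgeR), a call kept in all settings and with each library left out. In Hsp70- the means were 231 ± 20.2 CPM at day 7, 228 ± 12.4 CPM at day 23 and 201 ± 12.4 CPM at day 47. The pools of days 47 and 7 overlapped there and the change was not called (log2 fold change -0.20 with SE 0.08, adjusted p = 0.0654 by edgeR). It was called without Hsp70- day 7 replicate 2, a library with testis markers (edgeR adjusted p = 0.0364), and in 3 other settings. The difference between the strains in this change was not called (log2 fold change 0.17 with SE 0.12, adjusted p = 0.481 by edgeR).

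The PGC-1 homolog srl was at 12.8, 9.19, 10.8 and 10.2 CPM at day 7, 15.9, 12.6, 14.3 and 13.2 CPM at day 23 and 16.1, 10.5, 14 and 34.3 CPM at day 47 in w1118. At day 47, 3 pools were above all pools of day 7 and replicate 2 was not, and the change was called (log2 fold change 0.80 with SE 0.21, adjusted p = 0.00292 by edgeR). The size rests on replicate 4 of day 47: without it the log2 fold change was 0.33 (edgeR adjusted p = 0.0905). The call was also lost with the compared groups alone (edgeR adjusted p = 0.0991). The same pool had the highest gut marker sum of its group (26346 CPM, against 2106 to 21004 in the others) and the highest neuron marker sum (954 CPM, against 504 to 560). Its fat body marker sum was also the highest (9275 CPM, against 6365.5 to 7481.7). The part of these markers in the result was not tested. In Hsp70- srl was at 11.7, 10.3, 13 and 11.3 CPM at day 7, 14.5, 14.6, 17.2 and 15.9 CPM at day 23 and 15.9, 15.9, 17.7 and 14.7 CPM at day 47. The pools of days 23 and 47 were all above those of day 7, but neither change was called (0.43 and 0.47 as log2 fold changes with SE 0.21, and 0.141 and 0.0827 as adjusted p by edgeR). With the compared groups alone, the day 47 change in Hsp70- was called (log2 fold change 0.45, edgeR adjusted p = 0.011), so that setting called srl in Hsp70- and not in w1118. In w1118 the change between days 23 and 47 was called only without w1118 day 47 replicate 2 (edgeR adjusted p = 0.032).

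Sirt1 in w1118 was at 89.4, 90.1, 95.1 and 87.1 CPM at day 47 and 86.1, 78.9, 77.3 and 79.9 CPM at day 7. The pools did not overlap (log2 fold change 0.17 with SE 0.06, adjusted p = 0.0257 by edgeR). The call was lost without w1118 day 7 replicate 2, 3 or 4 or day 47 replicate 3 (edgeR adjusted p = 0.0572 to 0.0901). In Hsp70- Sirt1 was at 89, 85.5, 84.7 and 84.2 CPM at day 47 and 81, 71.3, 81.8 and 82 CPM at day 7, also without overlap but not called (log2 fold change 0.12 with SE 0.06, adjusted p = 0.117 by edgeR). ERR was at 43.8, 47.8, 40.6 and 29.9 CPM at day 47 and 32.3, 30.4, 31.8 and 40.1 CPM at day 7 in w1118 (log2 fold change 0.27 with SE 0.14, adjusted p = 0.124 by edgeR). The pools overlapped through replicate 4 of day 47, without which the change was called (0.39, edgeR adjusted p = 0.0249). With all pools and no filter on low counts ERR was called as well (0.39, edgeR adjusted p = 0.0376). In that setting the median log2 fold change of all features was 0.19, against 0.07 with the filter. The difference of Lkb1 was -0.21 in Hsp70- (SE 0.09, edgeR adjusted p = 0.0666) and 0.01 in w1118, not called; the Hsp70- difference was called without Hsp70- day 7 replicate 4 (edgeR adjusted p = 0.028) and by DESeq2 (DESeq2 adjusted p = 0.0358). Without Hsp70- day 7 replicate 2, the library with testis markers, the Lkb1 difference was -0.09 (edgeR adjusted p = 0.482).

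Against all features, the members called at day 47 relative to day 7 were 2 of 8 in Hsp70-, both lower, where 28.9% of features were called (14% higher, 14.9% lower). In w1118 they were 5 of 8, 2 higher and 3 lower, where 37.6% were called (19.2% higher, 18.5% lower). At day 23 relative to day 7 they were 0 of 8 in Hsp70- (17.3% of features). In w1118 they were 2 of 8, both lower (11.1% of features, 4.84% higher and 6.21% lower). In Hsp70- 4 members had an unadjusted edgeR p under 0.05, beside 4532 of 12939 features. DESeq2 called 1 of them, AMPKalpha. Between days 47 and 23, 0 of 8 were called in Hsp70- (3.6% of features) and 0 of 8 in w1118 (13.4%). DESeq2 called 0 as well. At an unadjusted edgeR p under 0.05 there were 2 members in Hsp70- (beside 2050 of 12939 features) and 1 in w1118 (beside 3346). The test of the difference between strains called 0 of 8 age changes in each of the 3 age comparisons, by edgeR or DESeq2. The shares of features it called by edgeR were 0.232% (23 against 7), 0.178% (47 against 23) and 1.64% (47 against 7). In that test 1 member (AMPKalpha, 47 against 7) had an unadjusted edgeR p under 0.05, beside 2540 of 12939 features. Beside these changes the median muscle marker sum was 22304 CPM in old and 25219 CPM in young Hsp70- flies, and 15622 CPM in old and 28638 CPM in young w1118 flies. The median gut marker sum was 5562 CPM in old and 594 CPM in young Hsp70- flies, and 16920 CPM in old and 285 CPM in young w1118 flies. The part of muscle or gut RNA in the changes was not tested. Thinning the day 47 libraries to the depth of the others ended none of the 9 calls. Every day 47 library was deeper than every library of days 7 and 23, and thinning changes depth only. Any other difference in how the day 47 libraries were made or sequenced cannot be told apart from age.

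**Figure D3:**
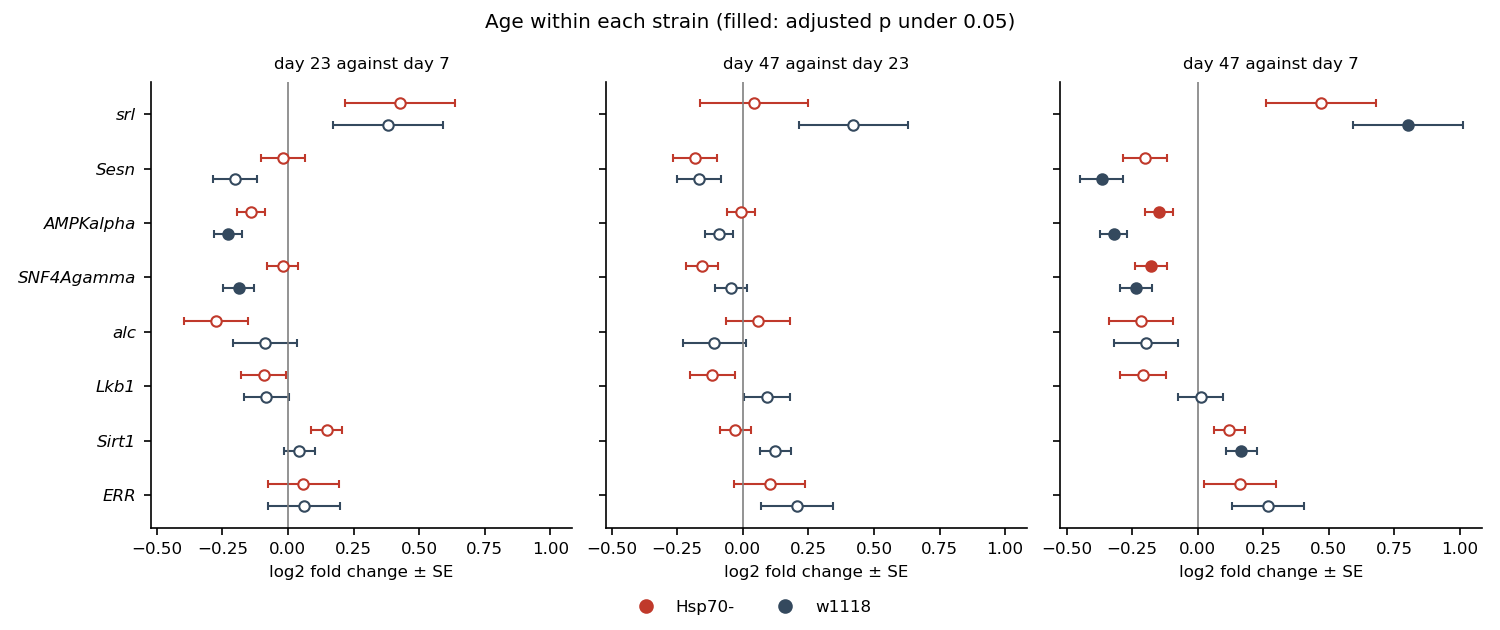
Log2 fold change with its SE (x axes) for the 3 age contrasts, in Hsp70- (red, upper) and w1118 (blue, lower); filled points have an edgeR adjusted p under 0.05. AMPKalpha and SNF4Agamma are filled in both strains for day 47 against day 7, and srl has the widest error bars (SE 0.21).

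The list counts for day 47 against day 7 stand beside 14% of all features higher and 14.9% lower in Hsp70-, and 19.2% higher and 18.5% lower in w1118. ERR itself was not called with age, and most of the genes listed as its targets were. Whether ERR acts on these genes in adult legs was not tested. Of 12 genes, 9 fell in Hsp70- between days 7 and 47 (median -0.81, against -0.02 for all features), and in w1118 9 fell and 1 rose (median -0.94, against 0.07). Gapdh1, a glycolytic dehydrogenase, averaged 539 ± 23.2 CPM in Hsp70- and 499 ± 74.6 CPM in w1118 at day 47, and 1868 ± 459 CPM in Hsp70- and 1603 ± 221 CPM in w1118 at day 7 (± SD over 4 pools). It fell in both strains (log2 fold change -1.79 with SE 0.15, adjusted p = 9.92e-11 by edgeR in Hsp70-; log2 fold change -1.68 with SE 0.15, adjusted p = 1.31e-10 by edgeR in w1118). Pfk, phosphofructokinase, fell by 1.02 in Hsp70- and fell by 1.24 in w1118. Ldh, lactate dehydrogenase, was the gene that rose in w1118 (log2 fold change 1.63 with SE 0.26, adjusted p = 1.10e-05 by edgeR). Glycolytic RNAs are abundant in muscle, and the part of the lower muscle marker sums of w1118 at day 47 was not tested.

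In the PGC-1 branch, TFAM, the mitochondrial transcription factor, fell between days 7 and 47 in Hsp70- (log2 fold change -0.56 with SE 0.08, adjusted p = 6.28e-06 by edgeR) and in w1118 (log2 fold change -0.48 with SE 0.08, adjusted p = 4.32e-05 by edgeR). Over that interval 3 of 14 genes rose and 2 fell in Hsp70-, near the share of all features called (28.9%), and 3 rose and 5 fell in w1118 (37.6% of all features). mtSSB, the mitochondrial single-strand binding protein, rose in both (0.42 in Hsp70- and 0.44 in w1118). In the TOR branch 7 of 21 genes rose and 0 fell in Hsp70- (14% and 14.9% of all features), and 5 rose and 1 fell in w1118, where the count that rose was near the background (19.2% and 18.5% of all features). Tor itself rose by 0.30 in Hsp70- and 0.26 in w1118, and its partner Lst8 by 0.35 in Hsp70- and 0.46 in w1118. The median of the list was 0.04 in Hsp70- (-0.02 for all features) and 0.11 in w1118 (0.07 for all features).

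Mo25, the scaffold protein of the Lkb1 complex, rose by 0.39 in Hsp70- and 0.32 in w1118 over the same interval (edgeR adjusted p = 2.25e-06 and 3.86e-05), while Stlk, an Ste20-like kinase of the same complex, fell by 0.39 in Hsp70- and fell by 0.42 in w1118. Of the 7 Sestrin regulators, 2 rose in Hsp70- (14% of all features) and 4 in w1118 (19.2%), among them Xbp1 (0.38 in Hsp70- and 0.60 in w1118). Of the 9 sirtuin and NAD genes, 3 fell in Hsp70- (14.9% of all features) and 4 in w1118 (18.5%), among them Sirt4, a mitochondrial sirtuin (-0.45 in Hsp70- and -0.63 in w1118). Nmnat, an enzyme of NAD synthesis, was the 1 listed gene whose change to day 47 differed between strains. It averaged 22.7 ± 1.17 CPM in Hsp70- and 21.1 ± 1.72 CPM in w1118 at day 47, and 23.4 ± 2.1 CPM in Hsp70- and 29.2 ± 0.703 CPM in w1118 at day 7 (± SD over 4 pools per strain; interaction log2 fold change 0.42 with SE 0.10, adjusted p = 0.0153 by edgeR). Among 11 AMPK targets, 0 rose and 2 fell in each strain, near the same shares of lower calls, among them Lpin, a phosphatidate phosphatase of lipid synthesis (-0.45 in Hsp70- and -0.56 in w1118).

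**Figure D4:**
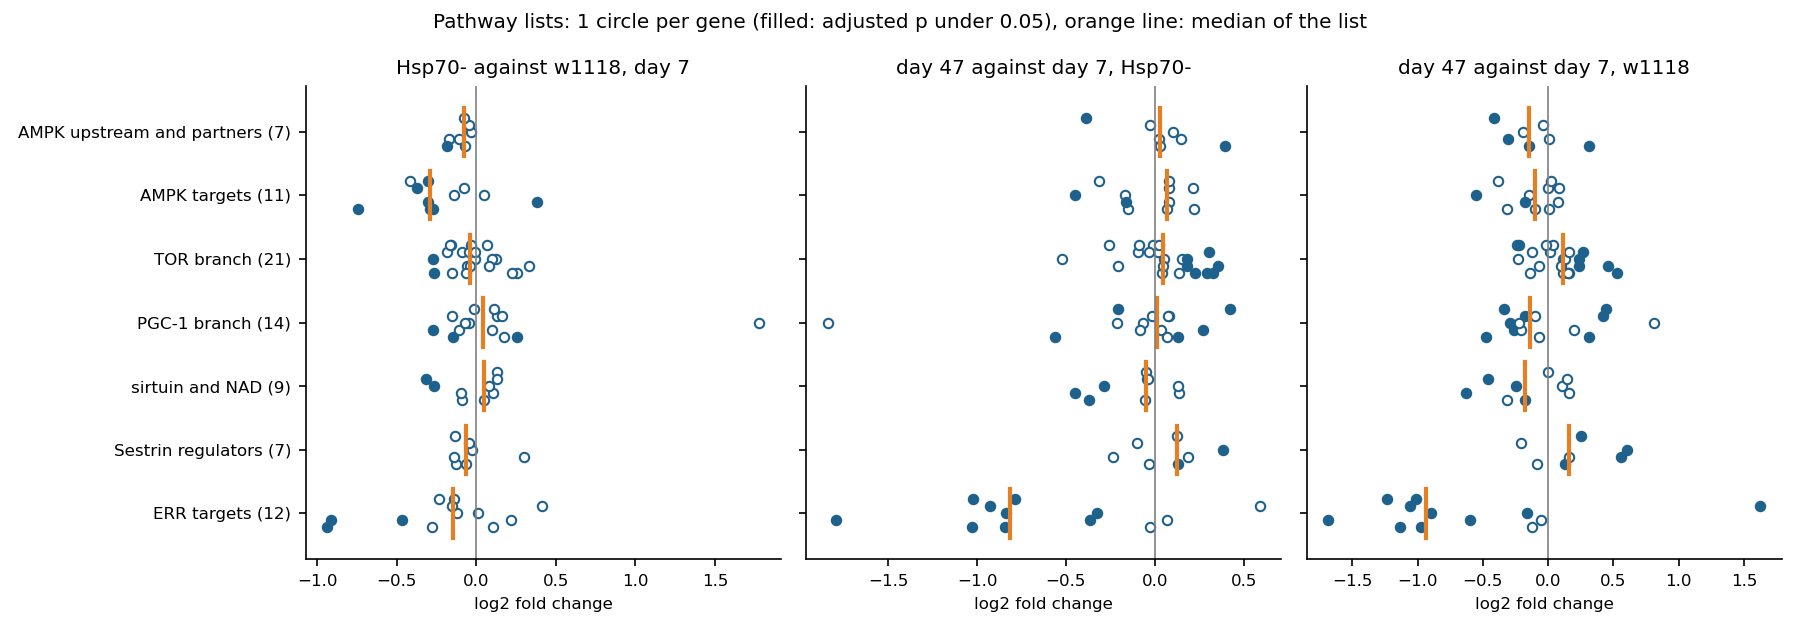
Log2 fold change (x axes) of each tested gene in the 7 pathway lists (rows, number of genes in brackets), with Hsp70- against w1118 at day 7 and day 47 against day 7 in each strain; filled circles have an edgeR adjusted p under 0.05 and orange lines are list medians. The ERR targets lie furthest from 0 with age (medians -0.81 in Hsp70- and -0.94 in w1118).

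The acute bout was set against rest in young flies, which asks how leg RNA differs after a single session. None of the 8 genes was called in Hsp70- or w1118 by edgeR. Sesn showed the largest differences, with higher values after exercise in both strains, and in Hsp70- its pools did not overlap. How many of all features had pools without overlap was not counted. The 16 log2 fold changes ranged from -0.20 to 0.34.

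Sesn in Hsp70- was at 264, 294, 317 and 300.0 CPM after exercise and 227, 205, 239 and 253 CPM at rest. All 4 exercised pools were above the 4 rested pools, but the adjusted p missed the threshold (log2 fold change 0.34 with SE 0.08, adjusted p = 0.11 by edgeR). DESeq2 called the same difference (log2 fold change 0.33, DESeq2 adjusted p = 0.00433). In w1118 Sesn was at 176, 224, 226 and 253 CPM after exercise and 188, 181, 192 and 196 CPM at rest. Of the exercised w1118 pools, 3 were above all rested pools and replicate 1, a library with testis markers, was below them (log2 fold change 0.22 with SE 0.08, adjusted p = 0.189 by edgeR). The difference between the strains in the response was not called (log2 fold change 0.13 with SE 0.12, adjusted p = 0.688 by edgeR).

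Other members moved less. SNF4Agamma in Hsp70- was at 385, 398, 401 and 404 CPM after exercise and 397, 335, 339 and 352 CPM at rest (log2 fold change 0.16 with SE 0.06, adjusted p = 0.146 by edgeR). Sirt1 in Hsp70- was at 94.5, 86.6, 82 and 90.1 CPM after exercise and 81, 71.3, 81.8 and 82 CPM at rest (log2 fold change 0.16 with SE 0.06, adjusted p = 0.13 by edgeR). For both genes 3 exercised pools were above all rested pools. The same held for AMPKalpha in Hsp70- (log2 fold change 0.10 with SE 0.05, adjusted p = 0.412 by edgeR). For alc in Hsp70- the log2 fold change was 0.05 with SE 0.12, not called. Lkb1 in Hsp70- was lower after exercise but not called (log2 fold change -0.20 with SE 0.09, adjusted p = 0.228 by edgeR), and its rested group holds the library with the highest testis marker sum (replicate 2, Lkb1 at 32.9 CPM). Without that library the difference was -0.08 (edgeR adjusted p = 0.993). In w1118 the log2 fold changes of the 7 genes other than Sesn lay between -0.05 and 0.07. The PGC-1 homolog srl had 0.10 in Hsp70- and -0.05 in w1118 (SE 0.21 each), and ERR had 0.09 in Hsp70- and -0.04 in w1118 (SE 0.14 each).

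Training was compared with no training at day 23. None of the 8 genes was called in either strain by edgeR or DESeq2. At an unadjusted edgeR p under 0.05 there were 0 members, beside 680 of 12939 features in Hsp70- and 837 in w1118. The 16 log2 fold changes lay between -0.13 (alc in w1118) and 0.14 (ERR in Hsp70-). Trained AMPKalpha averaged 155 ± 6.11 CPM in Hsp70-, against 159 ± 16.7 CPM untrained. In w1118 it averaged 166 ± 2.7 CPM trained, against 168 ± 6.44 CPM untrained (± SD over 4 pools). The differences were -0.04 in Hsp70- and -0.02 in w1118 on the log2 scale (SE 0.05 each). For srl the trained pools were at 14.7, 17.1, 14.9 and 15.2 CPM in Hsp70-, against 14.5, 14.6, 17.2 and 15.9 CPM untrained, and at 15, 16.4, 12.6 and 14.6 CPM in w1118, against 15.9, 12.6, 14.3 and 13.2 CPM untrained. The groups overlapped in both strains (-0.01 in Hsp70- and 0.07 in w1118, SE 0.21 each). For Sesn the differences were -0.04 in Hsp70- and 0.08 in w1118 (SE 0.08 each).

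Few features of any kind were called by edgeR in these comparisons. Exercise called 0.0464% of features in Hsp70- and 0.402% in w1118, and training 0.0464% in Hsp70- and 0% in w1118, beside 0 of 8 members each time. DESeq2 called more features, 139 in Hsp70- and 213 in w1118 for exercise, and 138 in Hsp70- and 5 in w1118 for training. At an unadjusted p under 0.05, exercise gave 4 of 8 members in Hsp70- and 1 in w1118. The test of the difference between strains called 8.27% of features for exercise and 0% for training, and 0 members in both by edgeR or DESeq2. In that test 0 members had an unadjusted edgeR p under 0.05, beside 2057 of 12939 features for exercise and 465 for training. Without the 3 libraries with testis markers, the exercise comparison between strains called 0 features. Of the 81 listed genes, edgeR called 0 for exercise or training in either strain. For exercise, 1978 of 12939 features had an unadjusted p under 0.05 in Hsp70- and 2132 in w1118.

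**Figure D5:**
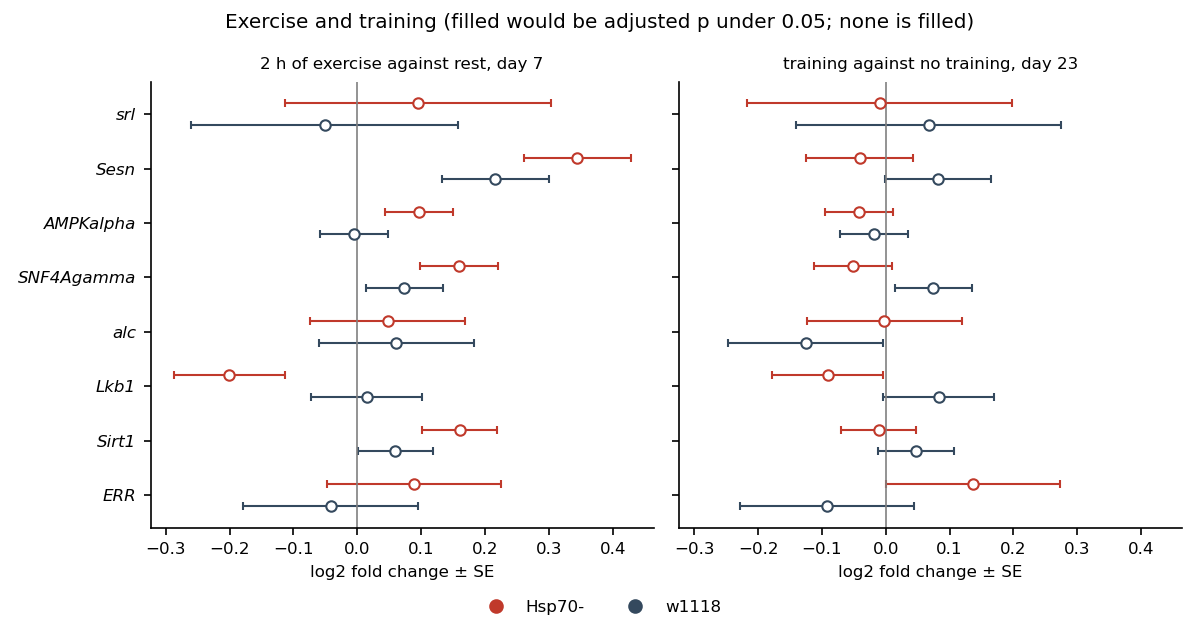
Log2 fold change with its SE (x axes) of exercise against rest at day 7 and of training against no training at day 23, in Hsp70- (red, upper) and w1118 (blue, lower). No point passes the threshold, and Sesn after exercise is furthest from 0 (0.34 in Hsp70-, 0.22 in w1118).

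Across the 40 libraries, which share strains, ages and pools, the members varied together to different degrees (Pearson's r of log2 CPM, given as a description). Sesn went with SNF4Agamma (r = 0.77), and AMPKalpha went with alc (0.668) and SNF4Agamma (0.655). The PGC-1 homolog srl ran opposite to AMPKalpha (-0.669) and alc (-0.673). Sirt1, Lkb1 and ERR had no value beyond 0.5 with any member. Of 8623 other named features, those most like Sesn were CG46429 (r = 1, the shared reads) and spartin (0.89). For AMPKalpha they were CG11791 (0.919) and Fbw5 (0.913), for SNF4Agamma Ehbp1 (0.884) and chrb (0.876), and for alc CG31937 (0.845) and Gs1l (0.835). For srl they were l(2)k09022 (0.908) and Mat89Ba (0.903). The values were lower for Lkb1 (CG6907, 0.766, and CysRS-m, 0.727), Sirt1 (Eip74EF, 0.748, and msn, 0.725) and ERR (CREG, 0.722, and CtsB1, 0.707).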

How the data were processed

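The deposited table holds whole-number read counts per feature for 40 libraries, and the authors' counting tool and annotation are not given in the sources used here. The submitters' processing notes name HISAT2 2.1.0, kallisto 0.44.0 and BDGP6. Per the labels' protocols the libraries were strand-specific. Library totals span 21955858 to 39313671 counts, and the standard errors given include the spread between pools. No column was unmapped, and all 60 replicate pairs differed beyond sampling noise (chi-square per degree of freedom 23.7 to 314).

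One model of all 40 libraries with 10 group means was fitted in edgeR 4.0.16 (R 4.3.3) with TMM scaling, a filter on low counts by group (12939 of 23932 features) and 30 residual degrees of freedom. The quasi-likelihood F test was adjusted by Benjamini-Hochberg within each of 20 comparisons, and called means an adjusted p under 0.05. Overlap of pools is given per member as a description, and the share of all features without overlap was not counted. Alternatives were RLE factors, DESeq2 1.42.0, other filters, fits of the compared groups alone, a replicate block, robust estimation, thinning of day 47 libraries, and libraries left out. Replicate numbers in the labels deviated together in all 4 pairs (r over 0.1) for training in w1118 and for strain in trained flies, where the block changed no member call.

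The members and pathway lists were chosen with earlier results of these data known. All 8 members were tested in every comparison, but not every member is named with a value in each. Of each list, at most the 3 called genes with the largest log2 fold change per comparison qualified, and for each member the 2 named features with the highest correlation and at least 5 CPM. Coordinates come from Ensembl BDGP6.54, in which 23851 of 23932 identifiers matched.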

Additional observations from a re-analysis of the deposited data

Results flagged for a closer look

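Of 80 combinations of gene and group, 7 held a pool whose gap to the nearest other pool was too large a share of the range of its group by Dixon's test, where chance gives about 1 in 20. For Lkb1 there were 3. Hsp70- day 23 replicate 1 had 23.3059 CPM, against 25.2733 to 25.6073 CPM in the other pools of its group. Hsp70- trained replicate 1 had 19.2261 CPM, against 24.3731 to 25.1271 CPM. The w1118 day 47 replicate 2 had 25.3695 CPM, against 28.1486 to 28.5614 CPM.

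The scaffold subunit alc was at 79.8669 CPM in w1118 day 47 replicate 4, against 127.556 to 128.789 CPM in the other pools. That pool also had the highest srl value of its group. AMPKalpha was at 169.552 CPM in w1118 trained replicate 3, against 163.868 to 164.572 CPM. SNF4Agamma was at 310.117 CPM in w1118 trained replicate 1, against 333.427 to 335.385 CPM. Sirt1 was at 71.3148 CPM in Hsp70- day 7 replicate 2, against 80.9588 to 81.9746 CPM. Of these libraries, w1118 trained replicate 1 and Hsp70- day 7 replicate 2 carried testis markers. Hsp70- trained replicate 1 had an eye marker sum of 13750.1 CPM, against 120 to 345 CPM in the other pools of its group. The part of these markers in the values was not tested.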

How the results depend on the processing

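Of 17 called member results, 6 kept their call in every setting and 0 changed sign. These were Sesn by strain at day 23, at day 47, after exercise and in trained flies, and Sesn and AMPKalpha at day 47 against day 7 in w1118. Of 143 results not called, 11 were called under at least 1 alternative. Member calls for exercise numbered 0, and 1 by DESeq2 (Sesn in Hsp70-). Member calls for age numbered 9, and 5 without the 11 libraries rich in testis, accessory gland or eye markers, an alternative chosen after seeing the data. With each library left out in turn, member calls were 7 to 10 for age, 7 to 9 for strain, and 0 for exercise, training and interactions. With the replicate block they were 10 for age, 8 for strain and 0 for the rest; the block added AMPKalpha at day 23 against day 7 in Hsp70- (adjusted p = 0.0414) and ended none.

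Counts of called features moved more. Exercise in Hsp70- called 6 features, and 139 by DESeq2, 3 with no filter, 3 with the block, 2 without testis libraries and 1 with the groups alone or without the 11 libraries. Exercise in w1118 called 52, and 213 by DESeq2, 15 with the groups alone and 11 without the 11 libraries. Training in Hsp70- called 6, and 138 by DESeq2, 10 with the block and 0 with the groups alone or without the 11 libraries; in w1118 it called 0, and 5 by DESeq2. In Hsp70- day 23 against day 7 called 2234, and 1481 with no filter, 499 with the groups alone, 914 without testis libraries and 60 without the 11. In Hsp70- day 47 against day 23 called 466, and 849 by DESeq2, and day 47 against day 7 called 3744, and 800.0 without the 11. In w1118 day 47 against day 23 called 1731, and 577 with the groups alone. Strain at day 7 called 3341, and 1901 with at least 10 counts in every library, 1681 with the groups alone, 2002 without testis libraries and 773 without the 11. Strain at day 23 called 2300.0, and 1529 with the groups alone; in trained flies 2016, and 1295 with the groups alone; in exercised flies 2609, and 1652 with at least 10 counts and 1449 without the 11 libraries. The exercise interaction called 1070.0, and 243 by DESeq2 and 0 with at least 10 counts, with the groups alone, or without testis or the 11 libraries. The training interaction called 0, and 38 by DESeq2. The interaction for 23 against 7 called 30, and 170.0 by DESeq2, 16 with the groups alone, 53 with the block, 19 without testis libraries and 0 without the 11. For 47 against 23 it called 23, and 37 by RLE factors, 223 by DESeq2, 62 with at least 10 counts, 14 with the groups alone, 53 with the block and 47 without the 11. For 47 against 7 it called 212, and 439 by DESeq2, 124 with no filter, 134 with the groups alone, 550.0 with the block and 61 without the 11. The causes were not tested.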
